A study of Homo sapiens with 30 samples.

Results

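Integrin and laminin chains were taken from the RNA-Seq table as every gene whose symbol names an integrin α chain, an integrin β chain, or a laminin α, β, or γ chain. This gave 38 of the 26228 genes listed: 18 integrin α chains, 8 integrin β chains, 5 laminin α chains, 4 laminin β chains, and 3 laminin γ chains. The rule reads gene symbols, not levels. They were followed in SH-EP, an established human neuroblastoma (NB) cell line of mesenchymal type without MYCN amplification, and in 4 stable lines made from it by retroviral transfer of WT MYCN, MYCN T58A, MYCN S62A, or the double mutant MYCN T58A S62A. T58A and S62A remove phosphorylation sites of MYCN that bear on its turnover. Each line was treated for 6 hours with DMSO or with 1 μM CYC065, an inhibitor of CDK9 and CDK2, in medium with serum. Every line and treatment had 3 libraries, which makes 30. Each MYCN line is a single stable population in which the transgene runs from an exogenous promoter, and SH-EP is the line without transgene, so integration and selection cannot be told apart from MYCN itself.

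Integrins are receptors that anchor cells to the extracellular matrix. Each is a pair of 1 α and 1 β chain, and the α chain largely sets which ligand is bound: collagens, laminins, or proteins with an RGD motif such as fibronectin and vitronectin. Laminins are trimers of 1 α, 1 β, and 1 γ chain that polymerize into basement membranes, where they are ligands of integrins and dystroglycan. In NB, mesenchymal-type cells are known for high expression of matrix and adhesion genes.

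Expression was given as FPKM (fragments per kilobase of transcript by Cufflinks, scaled for library size), which is per length, so levels of different genes can be set side by side. The number of reads per library is unknown. From the steps between low FPKM values, relative depth was 0.484 to 1 in the DMSO libraries and 0.302 to 0.570 in the CYC065 libraries, with 1 as the deepest. MYCN was listed at 0 in all 6 SH-EP libraries and at 5.08 to 15.7 FPKM in the 12 DMSO libraries of the MYCN lines. All 6 mesenchymal markers examined were expressed in SH-EP, with VIM at 2496 ± 61.7 FPKM (mean ± SD, n = 3), whereas of 10 adrenergic markers PHOX2A was at 0 in all 30 libraries and DBH and CHGA were at or near 0, although HAND2 (81.8 ± 3.27 FPKM), GATA2, and GATA3 were expressed. The 6 SH-EP libraries carry index sequences that were also used for MYCN-line libraries, so an effect of separate sequencing pools, if there was one, would fall together with the contrast of SH-EP to its MYCN derivatives, and these cannot be told apart. The labels do not say that the 3 libraries of a group came from separate cultures, so p-values measure the spread between libraries, which may be technical.

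SH-EP expressed a limited set of these chains. Of the 38, 18 averaged 1 FPKM or more across libraries and were tested: 9 integrin α chains, 2 integrin β chains, 3 laminin α chains, 3 laminin β chains, and 1 laminin γ chain. The other 20 were not tested, and 15 of them did not exceed 1 FPKM in any library. In SH-EP in DMSO, ITGA3, a laminin-binding α chain, had the highest level of all chains, with 226, 249.98, and 252 FPKM in the 3 libraries. The β chains were almost entirely ITGB1, the common partner of the collagen- and laminin-binding α chains, at 85.5, 129, and 135 FPKM, and ITGB5, which pairs with ITGAV, at 136, 139, and 141 FPKM. The 3 ITGB1 values were spread more widely than those of any other tested integrin chain in that group. Among the laminins, LAMB1 at 123 to 124 FPKM, LAMC1 at 111 to 118 FPKM, and LAMB3 at 105 to 107 FPKM were far above the α chains, of which LAMA4 was at 7.69 to 8.77, LAMA2 at 6.98 to 7.70, and LAMA5 at 6.74 to 7.37 FPKM. The summed FPKM of the laminin α chains was 22.8 ± 0.532, against 260 ± 3.20 for the β chains and 116 ± 3.65 for the γ chains (mean ± SD, n = 3 each). Trimers hold 1 chain of each kind, whereas the summed FPKM here were unequal between the 3 kinds. Protein was not measured in these libraries.

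The chains not tested include those of blood cells and of epithelium. ITGAL, an α chain of lymphocytes, was listed at 0 in all 30 libraries, as were ITGA8 and ITGA9. A 0 in a table without counts can be a failed estimate. ITGAM, ITGAX, and ITGAD of myeloid cells reached at most 0.0764, 0.0623, and 0.0905 FPKM, their partner ITGB2 at most 0.763 FPKM, and the platelet chain ITGA2B at most 0.130 FPKM. Of the leukocyte markers, PTPRC reached at most 0.204 FPKM, CD3E at most 0.0548 FPKM, and CD14 at most 1.61 FPKM, whereas the actin-binding proteins CORO1A, at 1.78 to 9.44 FPKM, and LCP1, at 0 to 131 FPKM, were expressed. ITGB4, the hemidesmosome partner of ITGA6, was between 0.196 and 0.846 FPKM in all libraries. LAMA3, the α chain that joins LAMB3 in the epithelial laminin trimer, stayed between 0.0805 and 1.11 FPKM in all libraries, with 0.0805 to 0.212 FPKM in SH-EP and 0.517 to 0.727 FPKM in S62A in DMSO. These groups did not overlap, at levels too low to be tested here. The epithelial markers KRT5 and CDH1 were at or near 0, although the plakins DST and PLEC were expressed. LAMB3 was thus measured at a high level beside a low level of its usual α partner. ITGB6, ITGB7, and ITGB8 reached at most 0.260, 0.0588, and 0.390 FPKM, LAMA1, LAMB4, and LAMC3 at most 0.0259, 0.374, and 0.141 FPKM, and ITGA7, a laminin receptor of muscle, lay between 0.151 and 1.17 FPKM. ITGB3, another partner of ITGAV, lay between 0.0887 and 1.71 FPKM. Finally, ITGA11, a collagen-binding chain of fibroblasts, at 0.0317 to 3.57 FPKM, came closest to the filter, with an average of 0.975 FPKM. In DMSO, ITGA11 averaged 1.41 ± 0.230 FPKM in SH-EP, 1.02 ± 0.236 FPKM in S62A, but 0.599 ± 0.0609 FPKM with WT MYCN, 0.184 ± 0.134 FPKM in the double mutant, and 0.145 ± 0.160 FPKM with T58A (mean ± SD, n = 3 each). Its SH-EP libraries, at 1.21 to 1.66 FPKM, overlapped those of S62A, which reached 1.28 FPKM.

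**Figure D1:**
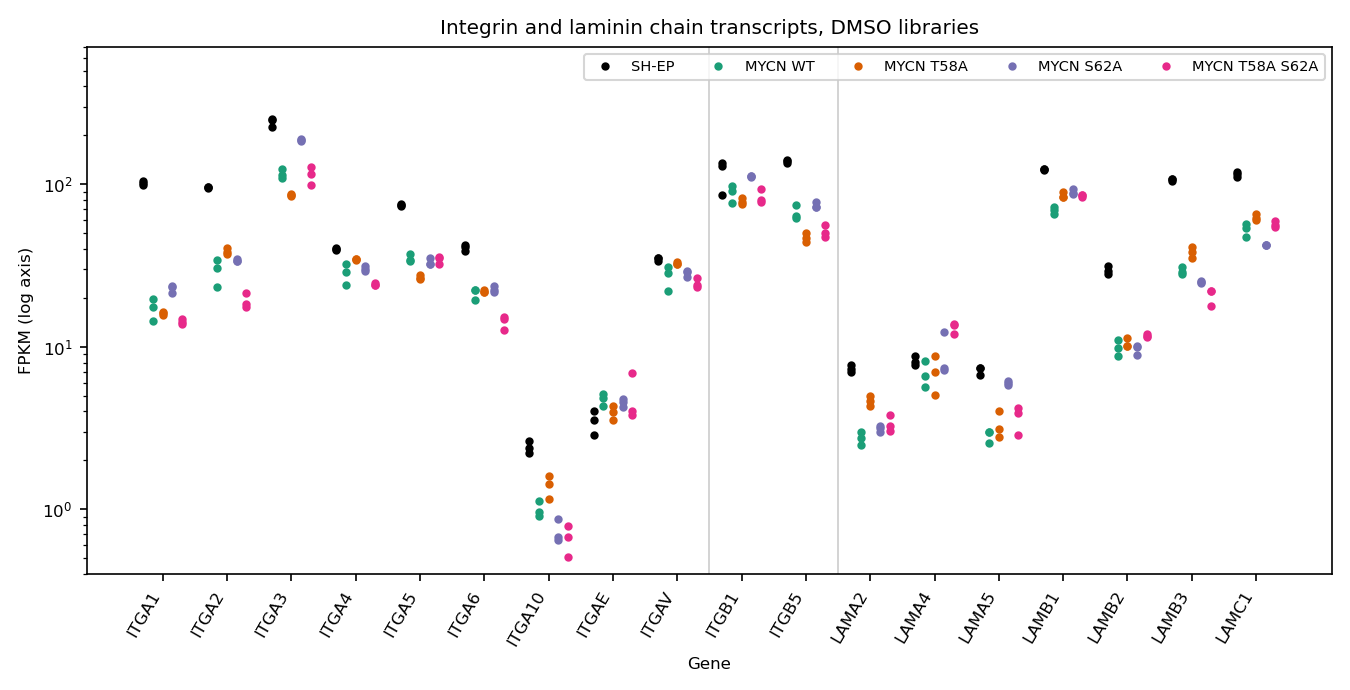
FPKM (log axis) of the 18 tested chains in each DMSO library, coloured by line. For 15 of the 18 genes, all 12 MYCN-line libraries lie below all 3 SH-EP libraries, and ITGAE, ITGB1, and LAMA4 overlap.

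To see whether MYCN-expressing cells differed from SH-EP in their adhesion receptors and basement membrane chains, each line was compared with SH-EP in DMSO on FPKM as deposited. Most chains were lower with MYCN. With limma on log2(FPKM + 0.1), a scale that understates changes of low genes, and a Benjamini-Hochberg adjusted p under 0.05 over all 11575 genes tested, 16 of the 18 chains were lower with WT MYCN, 15 with T58A, 14 with S62A, and 16 with T58A S62A. Of all genes tested, 22.6%, 23.3%, 23.4%, and 24.1% were lower in these 4 lines. Higher were 1, 0, 1, and 2 chains, against 31.6%, 30.9%, 31%, and 31.2% of all genes. The 0 for T58A stayed 0 at an unadjusted p under 0.05. In all 4 lines, 13 chains were lower and 0 higher, where the shares of all genes were 13.4% and 19.2%. The median difference of the 18 chains was -1.07, -0.89, -0.88, and -1.10 in log2, against 0.07, 0.05, 0.06, and 0.06 for all genes.

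Without any test, all 12 MYCN-line libraries lay below all 3 SH-EP libraries for 15 of the 18 chains, a pattern that 16.5% of all genes had, and 0 chains had the opposite pattern, which 21.8% of all genes had. Averaged over the 4 lines, 16 chains were lower and 1 was higher by the same test, against 26.3% and 34.6% of all genes. The 4 comparisons share the SH-EP libraries and are not independent of each other. ERCC spike-ins, synthetic RNAs added by cell number, gave lower values in the MYCN lines for most genes: scaled to them, the median of all genes was -1.18, -0.93, -1.87, and -0.94, and the chains lower were 18, 18, 18, and 17, against 88.9%, 79.9%, 95.1%, and 79.9% of all genes, with 0 higher by limma also at an unadjusted p under 0.05. The differences below are those of FPKM as deposited, relative to the other RNA of the same cells. In bulk RNA, fewer cells that express a gene and less RNA per cell cannot be told apart.

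**Figure D2:**
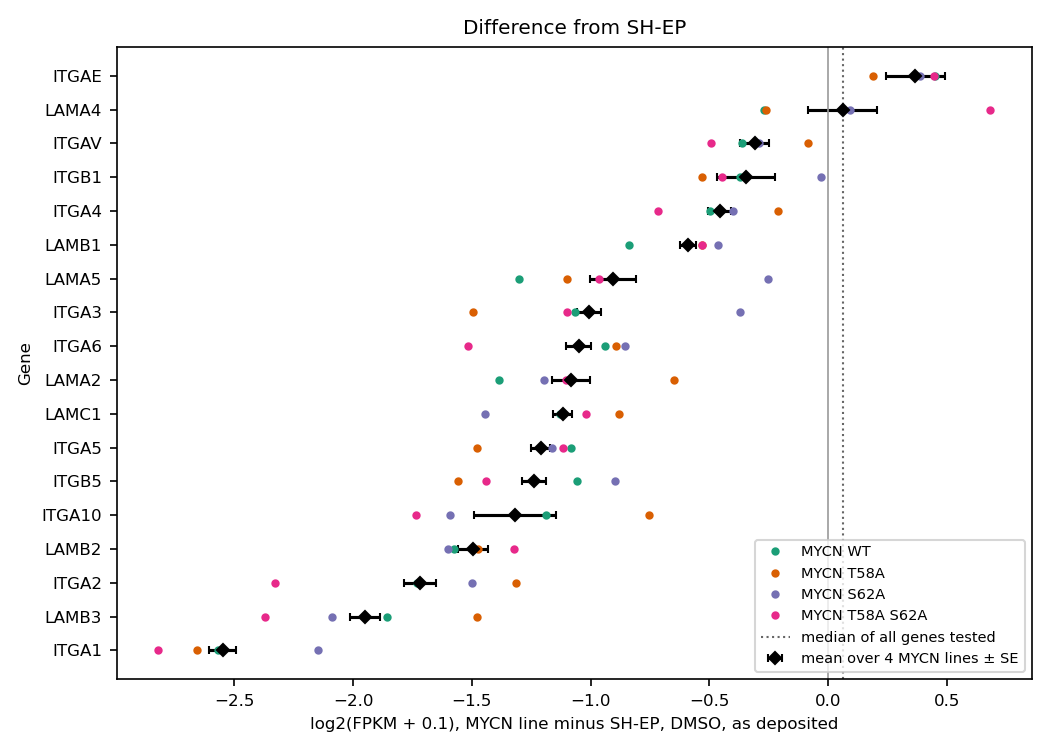
Difference from SH-EP in DMSO, in log2(FPKM + 0.1) as deposited, for the 18 tested chains. Diamonds are the mean over the 4 MYCN lines with the standard error from limma, coloured points are the single lines, and the dotted line is the median of all genes tested (0.06); ITGA1, at -2.55, lies farthest to the left and ITGAE, at 0.37, farthest to the right.

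The collagen-binding α chains had the largest mean differences of the integrin α chains, though differences between genes were not tested. ITGA1 and ITGA2, neighbours on the plus strand of chromosome 5 (52083750 to 52255039 and 52285170 to 52390609 of GRCh37), encode the α chains of the classical collagen receptors. ITGA1 was at 98.4, 102, and 105 FPKM in SH-EP and at 13.9 to 23.8 FPKM, with a median of 16.2, in the 12 MYCN-line libraries. No MYCN-line library came near the SH-EP level, and the mean difference was -2.55 in log2 (SE 0.06, adjusted p = 5.28e-21). By line, ITGA1 was at 21.4, 23.4, and 23.8 FPKM in S62A, 14.3, 17.7, and 19.6 FPKM with WT MYCN, 15.7, 16.2, and 16.3 FPKM with T58A, and 13.9, 14.2, and 14.9 FPKM in the double mutant. The S62A libraries were the highest of the 4 lines and did not overlap the others. An exon of ITGA1 shares up to 499 bases on the same strand with PELO, at 26.2 FPKM on average, so part of the reads there could belong to either gene. ITGA2 was at 95.4, 96.4, and 96.9 FPKM in SH-EP and at 17.6 to 40.3 FPKM, median 33.6, in the MYCN lines, a mean difference of -1.72 (SE 0.07, adjusted p = 2.88e-16). T58A was the highest of the 4 lines for this gene and T58A S62A the lowest. ITGA10, a collagen receptor chain of cartilage with low expression here, was at 2.21 to 2.62 FPKM in SH-EP and at 0.512 to 1.60 FPKM in the MYCN lines (-1.32, SE 0.17, adjusted p = 4.38e-07). ITGA10 lay around the filter of 1 FPKM in the MYCN lines, with DMSO means from 0.658 (T58A S62A) to 1.39 FPKM (T58A). Its average over all 30 libraries, 1.51 FPKM, was raised by its SH-EP level.

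The laminin-binding α chains ITGA3 and ITGA6 fell to a similar extent on average over the MYCN lines, but less so by line. ITGA3 and ITGA6 differed from SH-EP by -0.37 and -0.86 in S62A and by -1.50 and -0.89 in T58A. In T58A S62A these were -1.10 and -1.51, and with WT MYCN -1.06 and -0.94. ITGA3, whose pair with ITGB1 binds laminins with LAMA5 or LAMA3, went from 226 to 252 FPKM in SH-EP to 84.7 to 191 FPKM, median 115, in the MYCN lines (-1.01, SE 0.05, adjusted p = 2.14e-14). The range within the MYCN lines was wide, from 85.9 ± 1.05 FPKM in T58A to 188 ± 3.37 FPKM in S62A (mean ± SD, n = 3 each). ITGA6, which binds laminins with either ITGB1 or ITGB4, was at 39.1, 41.1, and 42.6 FPKM in SH-EP and at 12.7 to 23.6 FPKM, median 21.8, in the MYCN lines (-1.05, SE 0.05, adjusted p = 1.45e-14). Its 3 T58A S62A libraries, at 12.7 to 15.4 FPKM, lay below all libraries of the other lines.

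Chains of fibronectin and vitronectin receptors fell by unequal amounts. ITGA5, the α chain of the main fibronectin receptor, was at 73.7, 74.4, and 76.0 FPKM in SH-EP and at 26.1 to 37.5 FPKM, median 33.1, in the MYCN lines (-1.21, SE 0.04, adjusted p = 1.08e-17). ITGAV, which binds vitronectin and other RGD proteins, was at 33.7 to 35.2 FPKM against 22.0 to 33.3 FPKM (-0.31, SE 0.06, adjusted p = 0.000131). The groups did not overlap, but by a small margin, and in T58A the difference of -0.08 did not pass the test. ITGB5, whose only α partner is ITGAV, fell further than ITGAV did, from 136 to 141 FPKM in SH-EP to 44.3 to 78.4 FPKM, median 59.1 (-1.24, SE 0.05, adjusted p = 2.77e-16). ITGA4, which binds fibronectin and VCAM1, was at 39.2 to 40.5 FPKM against 23.9 to 34.6 FPKM (-0.46, SE 0.05, adjusted p = 2.29e-08).

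ITGB1, ITGAE, and LAMA4 stood apart from the rest. ITGB1, the partner of most of the α chains above, was at 76.1 to 113 FPKM, median 86.9, in the MYCN lines, and its lowest SH-EP library lay within that range. Its mean difference was -0.35 (SE 0.12, adjusted p = 0.0167), and in S62A it was -0.03 and did not pass the test. Without SH-EP library 1 the mean was -0.26 with adjusted p = 0.138, and without SH-EP library 3 it was -0.23 with adjusted p = 0.180. ITGAE, an α chain known from T cells of epithelia, was the 1 chain that was higher on average, at 2.88, 3.52, and 4.04 FPKM in SH-EP and 3.55 to 6.88 FPKM, median 4.33, in the MYCN lines (0.37, SE 0.13, adjusted p = 0.0142). The groups overlapped, its only known partner ITGB7 was at or near 0, and without SH-EP library 1 the call was lost (0.24, adjusted p = 0.164). LAMA4, a laminin α chain of vessels and mesenchyme, did not differ on average (0.06, SE 0.14, adjusted p = 0.738), but in T58A S62A, at 11.98, 13.7, and 13.8 FPKM, it was above all 3 SH-EP libraries (0.68). Scaled to the spike-ins, ITGAE (-0.92) and LAMA4 (-1.24) were lower on average in the MYCN lines, so that the direction of these genes turns with the scaling.

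Of the 7 tested laminin chains, those other than LAMA4 fell on average over the MYCN lines. LAMB3 (chromosome 1, 209788215 to 209825770 of GRCh37, minus strand) was at 105.2, 107.1, and 107.2 FPKM in SH-EP. Among the MYCN lines it was at 35.2, 38.1, and 41.4 FPKM with T58A, 27.9, 29.0, and 31.1 FPKM with WT, 24.5, 25.003, and 25.4 FPKM with S62A, and 17.7, 22.1, and 22.2 FPKM with both mutations. The 4 lines did not overlap each other, T58A being the highest and T58A S62A the lowest, and the mean difference from SH-EP was -1.95 (SE 0.06, adjusted p = 6.72e-18). LAMB2, the β chain of synapses and kidney basement membranes, went from 27.9 to 31.3 FPKM to 8.82 to 11.9 FPKM (-1.49, SE 0.06, adjusted p = 8.39e-16). LAMB1, the β chain of most embryonic laminins, fell less, from 123 to 124 FPKM to 65.4 to 93.3 FPKM, median 85.1 (-0.59, SE 0.03, adjusted p = 3.02e-13). LAMC1, the γ chain of most laminins, was at 111, 117, and 118 FPKM in SH-EP and at 42.2 to 65.8 FPKM in the MYCN lines (-1.12, SE 0.04, adjusted p = 1.93e-17). S62A had the lowest LAMC1, at 42.2 to 42.5 FPKM. Of the α chains, LAMA2 of muscle and nerve went from 6.98 to 7.70 FPKM to 2.50 to 4.95 FPKM (-1.08, SE 0.08, adjusted p = 2.1e-11), and LAMA5, the broadly expressed α chain, from 6.74 to 7.37 FPKM to 2.56 to 6.13 FPKM (-0.91, SE 0.10, adjusted p = 1.84e-08). For LAMA5 the S62A line, at 5.85 to 6.13 FPKM, was close to SH-EP, and its difference of -0.26 did not pass the test.

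Promoter sequences, 250 bases before to 50 after a start site, were found in the RefSeq table (GRCh38.p14) for 17 of the 18 tested chains, with 24 start sites, and each matched 1 place in GRCh37 exactly. Since MYCN binds the E-box CACGTG, these windows were searched for it on both strands, and for the AP-1 motif TGANTCA, a site of JUN and FOS in matrix and adhesion genes; these motifs do not overlap each other. CACGTG was in 1 of the 17 genes, ITGA6, where 8.78% of all genes in the table and 7.26% of all promoters held it. TGANTCA was in 2 of the 17, ITGA5 and LAMB3, where 9.37% of all genes and 7.71% of all promoters held it. A match of letters is a description of the window and says nothing of binding. Below are the 150 bases before a start site, 5′ to 3′, with GRCh37 positions and with both motifs in capitals, for the chains with the largest falls (ITGA1, LAMB3), for the E-box holder (ITGA6), and for 2 of the 3 chains that overlapped SH-EP (ITGB1, LAMA4). The LAMB3 window is that of 1 of its 3 start sites, with TGANTCA beginning at base -67. The ITGA6 window is that of 1 of its 2, with CACGTG beginning at base -101. The ITGB1 window is also that of 1 of its 2 start sites.
ITGA1 (chr5:52083600-52083749, strand plus): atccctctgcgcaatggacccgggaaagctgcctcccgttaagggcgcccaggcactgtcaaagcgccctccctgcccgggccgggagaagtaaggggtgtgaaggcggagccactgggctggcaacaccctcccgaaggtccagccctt
LAMB3 (chr1:209824720-209824869, strand minus): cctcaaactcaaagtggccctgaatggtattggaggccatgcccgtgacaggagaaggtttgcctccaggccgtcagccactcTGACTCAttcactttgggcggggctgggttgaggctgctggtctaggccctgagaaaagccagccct
ITGA6 (chr2:173291914-173292063, strand plus): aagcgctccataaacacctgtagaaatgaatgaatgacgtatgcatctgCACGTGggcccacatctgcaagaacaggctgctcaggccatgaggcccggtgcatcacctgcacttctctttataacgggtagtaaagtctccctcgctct
ITGB1 (chr10:33247159-33247308, strand minus): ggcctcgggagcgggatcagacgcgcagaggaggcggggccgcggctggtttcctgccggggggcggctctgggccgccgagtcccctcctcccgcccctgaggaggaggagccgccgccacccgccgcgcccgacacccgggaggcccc
LAMA4 (chr6:112575770-112575919, strand minus): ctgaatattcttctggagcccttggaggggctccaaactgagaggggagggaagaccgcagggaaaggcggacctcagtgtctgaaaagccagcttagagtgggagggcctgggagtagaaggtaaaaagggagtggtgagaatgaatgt
The ITGA1, ITGB1, and LAMA4 stretches shown hold neither motif.

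The makeup of the chain classes, apart from laminin γ, shifted along with their level. Summed over a class, the MYCN lines were lower than SH-EP by -1.15 in log2 for integrin α chains, -0.77 for integrin β, -0.47 for laminin α, -1.10 for laminin β, and -1.12 for laminin γ. Shares within a class do not depend on how libraries are scaled. ITGA1 made up 15.9% ± 0.825 of the integrin α sum in SH-EP and between 5.71% ± 0.413 (T58A S62A) and 6.26% ± 0.302 (S62A) in the MYCN lines (mean ± SD, n = 3 each). ITGA3 was the leading α chain in every line, from 32.7% ± 0.218 in T58A to 51.3% ± 1.21 in S62A, with 38.0% ± 1.47 in SH-EP. ITGB1 rose as a share of the β chains without rising in level, from 44.9% ± 6.30 in SH-EP to between 56.7% ± 3.69 (WT) and 62.2% ± 1.61 (T58A). LAMB3 went from 41.0% ± 0.153 of the laminin β sum in SH-EP to between 17.5% ± 1.58 (T58A S62A) and 28.4% ± 2.21 (T58A), and LAMB1 from 47.6% ± 0.441 to between 63.7% ± 2.62 (T58A) and 72.5% ± 1.22 (T58A S62A). LAMA4 went from 35.8% ± 1.65 of the laminin α sum to between 45.4% ± 8.86 (T58A) and 64.1% ± 1.97 (T58A S62A). The lowest T58A library, at 36.1%, lay within the SH-EP range of 34.6% to 37.65%. LAMC1 stayed nearly the whole laminin γ sum, at 99.2% ± 0.0725 in SH-EP and between 99.1% ± 0.278 (WT) and 99.7% ± 0.0695 (T58A). These shares are given as a description and were not tested.

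**Figure D3:**
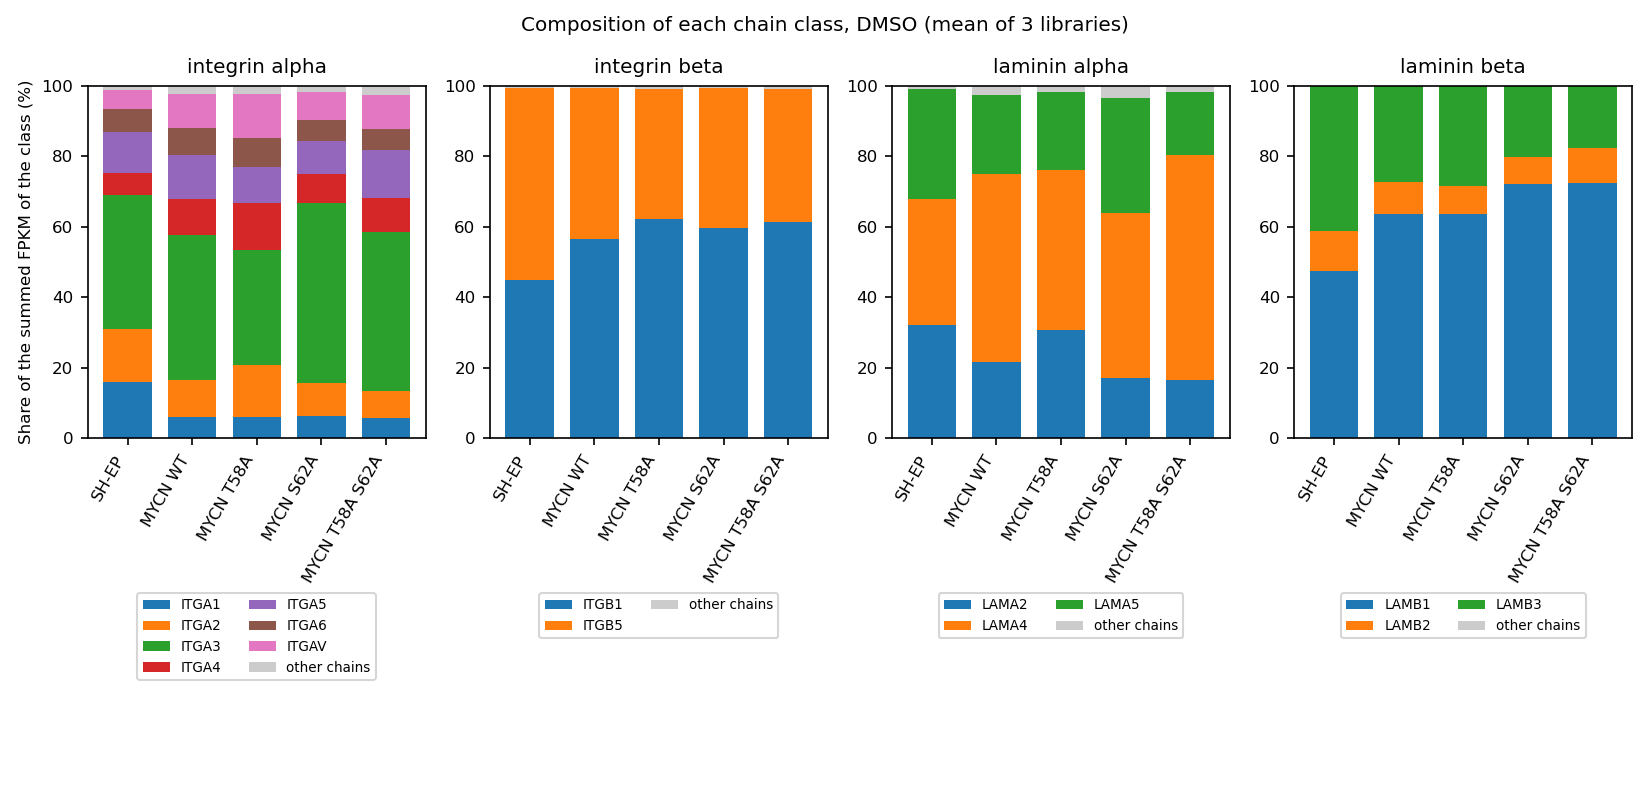
Share of each chain in the summed FPKM of its class (%), as the mean of the 3 DMSO libraries of each line. In SH-EP, ITGA1 is 15.9% of the integrin α bar and LAMB3 41.0% of the laminin β bar, against at most 6.26% and 28.4% in the MYCN lines.

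The 3 mutants were compared with the WT MYCN line in DMSO. MYCN itself was at 13.5 ± 3.83 FPKM in the double mutant, 12.9 ± 1.09 FPKM in WT, 8.52 ± 1.29 FPKM with T58A, and 5.72 ± 0.778 FPKM with S62A (mean ± SD, n = 3 each), so the level of the transgene and its mutation cannot be told apart. In T58A, 7 of the 18 chains were higher and 3 lower than in WT, against 10.7% and 13% of all genes. ITGA2 (0.42), LAMA2 (0.74), LAMB3 (0.38), LAMB1 (0.31), ITGA4 (0.29), ITGAV (0.28), and LAMC1 (0.25) were higher, and ITGA3 (-0.43), ITGA5 (-0.39), and ITGB5 (-0.50) lower. In S62A, 4 chains were higher and 2 lower, against 10.1% and 14% of all genes. These were LAMA5 (1.05), ITGA3 (0.69), ITGA1 (0.42), and LAMB1 (0.37) on the higher side and LAMC1 (-0.32) and LAMB3 (-0.23) on the lower. In T58A S62A, 4 were higher and 6 lower, against 9.43% and 14.2% of all genes. LAMA4 (0.95), LAMB1 (0.31), LAMA2 (0.28), and LAMB2 (0.25) were higher, and ITGA2 (-0.60), ITGA6 (-0.57), LAMB3 (-0.51), ITGB5 (-0.38), ITGA1 (-0.25), and ITGA4 (-0.22) were lower.

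As deposited, some chains moved in opposite directions in different mutants, such as ITGA3, ITGA2, and LAMB3, whereas LAMB1 moved in the same direction. ITGA3 was at 188 ± 3.37 FPKM in S62A, 116 ± 8.06 FPKM in WT, 114 ± 14.3 FPKM in the double mutant, and 85.9 ± 1.05 FPKM in T58A, and the S62A libraries, at 184 to 191 FPKM, did not overlap those of any other MYCN line. LAMB1, at 69.1 ± 3.60 FPKM in WT, was higher in all 3 mutants, at 85.5 ± 3.50, 89.5 ± 3.38, and 85.4 ± 1.55 FPKM (mean ± SD, n = 3 each). These comparisons share the WT libraries. The calls depended on scaling. With spike-ins, 5 chains were higher and 0 lower in T58A (6.89% and 0.51% of all genes), 0 higher and 12 lower in S62A (0.199% and 75.5%), and 1 higher and 0 lower in T58A S62A (5.96% and 1.05%), and LAMA4 was the chain that stayed higher in T58A S62A. Single libraries also decided calls. T58A over WT for ITGAV fell to 0.14 (adjusted p = 0.0995) without WT library 1. S62A against WT for LAMB3 (-0.23) was called only when WT library 3 was left out, among the 6 fits without 1 library, and ranged from -0.27 to -0.19. In T58A S62A, calls were lost for ITGA1 (without WT library 2 or 3), ITGA4 (without WT library 3), LAMA2 (without WT library 1 or 2, or T58A S62A library 2 or 3), and LAMB2 (without WT library 2 or 3, or T58A S62A library 1).

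CYC065 was compared with DMSO within each line. CDK9 releases paused RNA polymerase II, and its inhibition lowers transcription broadly, so the comparison was made on FPKM scaled to the spike-ins, with FPKM as deposited beside it. The 2 scales gave opposite signs for most chains. Negative on both were LAMB3 with WT MYCN, T58A, and S62A (-0.15, -0.19, and -0.12 as deposited) and LAMB1 with T58A (-0.10). Scaled to the spike-ins, 6 of the 18 chains were lower in SH-EP, 17 with WT MYCN, 16 with T58A, 18 with S62A, and 7 with T58A S62A, where 76.1%, 93.6%, 81.8%, 90%, and 65.2% of all genes were lower. In each line 0 of the 18 were higher by limma, also at an unadjusted p under 0.05, against 0.898%, 0.786%, 1.29%, 0.976%, and 2.1% of all genes. The median change of the chains was -0.40, -0.98, -0.57, -0.82, and -0.32 in log2, and that of all genes -1.06, -1.55, -1.03, -1.33, and -0.80. In every line, the median fall of the chains was smaller than that of all genes. The T58A count rested on single libraries, with 8 lower without T58A DMSO library 1 and 9 without library 3. With 21 abundant spike-ins the counts were 3 in SH-EP, 8 in T58A, and 12 in T58A S62A, and with only the groups compared they were 10 in SH-EP and 7 in T58A.

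As deposited, where a level is relative to the other RNA of the library, 18, 16, 13, 15, and 14 chains were higher with CYC065 in the same order of lines, against 42.7%, 37%, 38.1%, 38.8%, and 38.6% of all genes. Only in T58A were any lower, LAMB1 and LAMB3, where 33.3% of all genes were lower. On that scale the median change of the chains was 0.83, 0.67, 0.57, 0.65, and 0.57, and that of all genes 0.15, 0.06, 0.07, 0.07, and 0.07. Averaged over the 5 lines, all 18 chains were lower and 0 higher after scaling to spike-ins (94% and 1.71% of all genes), and 17 were higher as deposited (46.9% of all genes).

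**Figure D4:**
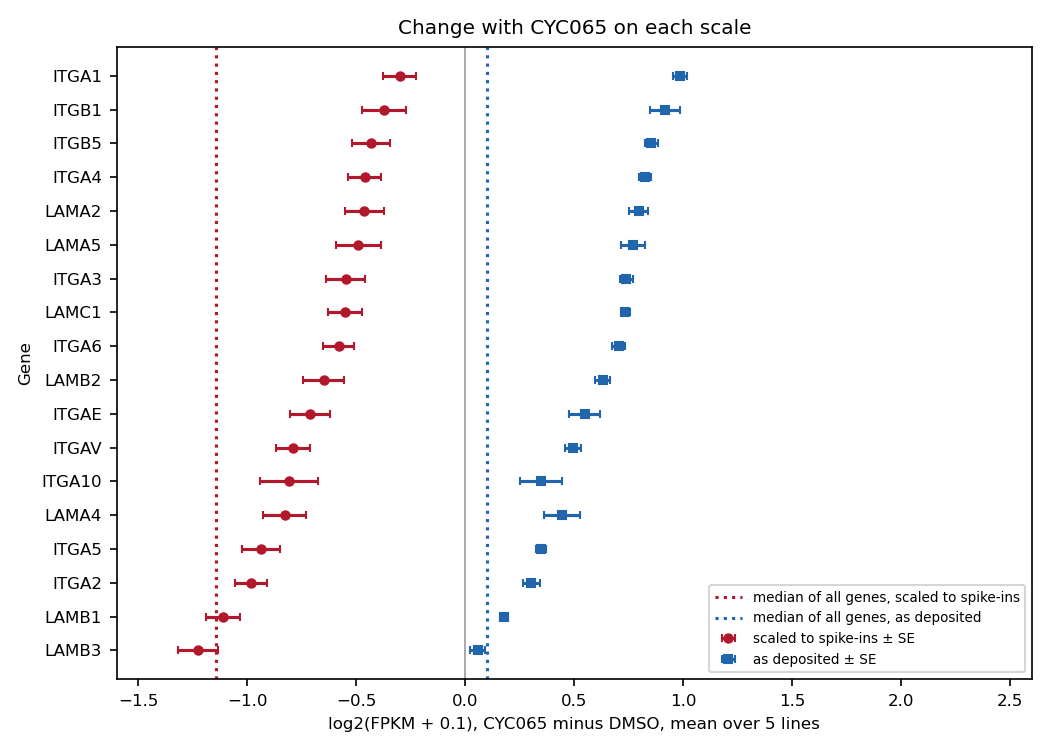
Change with CYC065 in log2(FPKM + 0.1), as the mean over the 5 lines with the standard error from limma, for FPKM scaled to spike-ins (red circles) and as deposited (blue squares); dotted lines are the medians of all genes, -1.14 and 0.10. ITGA1 lies farthest to the right on both scales (-0.30 and 0.98), and LAMB1 and LAMB3 lie nearest to the medians of all genes.

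Scaling moves all genes of a library together, so the chains kept nearly the same order, with LAMB3 and LAMB1 at the low end and ITGA1 and ITGB1 at the high end. ITGA1 changed by -0.30 (SE 0.08, adjusted p = 0.000573) after scaling to the spike-ins and by 0.98 as deposited. In SH-EP its FPKM as deposited was 98.4 to 105 in DMSO and 194 to 204 in CYC065, and its spike-in scaled FPKM 304 to 353 and 232 to 294, so that the treated libraries lay above the controls on the first scale and below them on the second, where the change of -0.28 did not pass the test in that line. ITGB1 changed by -0.37 (SE 0.10, adjusted p = 0.00109), ITGB5 by -0.43 (SE 0.09), ITGA4 by -0.46 (SE 0.08), LAMA2 by -0.46 (SE 0.09), LAMA5 by -0.49 (SE 0.10), ITGA3 by -0.55 (SE 0.09), LAMC1 by -0.55 (SE 0.08), and ITGA6 by -0.58 (SE 0.07). Falls of a middle size were those of LAMB2 (-0.65, SE 0.09), ITGAE (-0.71, SE 0.09), ITGAV (-0.79, SE 0.08), ITGA10 (-0.81, SE 0.13), and LAMA4 (-0.83, SE 0.10). ITGA5 (-0.94, SE 0.09), ITGA2 (-0.98, SE 0.07), LAMB1 (-1.11, SE 0.08, adjusted p = 2.74e-13), and LAMB3 (-1.23, SE 0.09, adjusted p = 6.65e-13) fell furthest, and the last of these was the only chain whose fall exceeded the median of all genes, -1.14. As deposited, LAMB1 changed by 0.18 and LAMB3 by 0.06, the latter not past the test (adjusted p = 0.149). The chains lower in all 5 lines after scaling were ITGA2, ITGA5, ITGAV, LAMB1, and LAMB3.

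An interaction term tested whether CYC065 changed the chains differently with MYCN than in SH-EP. After scaling to spike-ins, LAMB3 was the 1 chain that passed, with 0 of 18 higher and 1 lower, against 4.96% and 1.49% of all genes, and at an unadjusted p under 0.05 these were 0 and 5. In SH-EP its spike-in scaled FPKM was 330.4 to 354.7 in DMSO and 211 to 239 in CYC065, a change of -0.61. With WT MYCN, libraries at 33.5 to 49.8 in DMSO stood against 9.61 to 13.4 in CYC065 (-1.81). With S62A these were 18.5 to 22.5 and 5.49 to 8.42 (-1.59), with T58A 44.9 to 75.6 and 23.9 to 25.8 (-1.33), and with both mutations 24.6 to 40.6 and 15.03 to 21.8 (-0.81). Treated and control libraries did not overlap in any line. The mean response in the MYCN lines differed from that in SH-EP by -0.77 (SE 0.23, adjusted p = 0.0372), and by -0.73 (adjusted p = 1.29e-06) as deposited. The call on the spike-in scale was close to the threshold and was lost in 10 of 30 fits that left out 1 library. These were the fits without any 1 of the 6 SH-EP libraries, S62A DMSO library 1 or 2, T58A S62A DMSO library 3, or WT CYC065 library 3, with adjusted p between 0.0507 and 0.111. It was also lost with 21 abundant spike-ins (-0.98, adjusted p = 0.105). LAMB1 (-0.62, SE 0.20, adjusted p = 0.0602) and ITGA5 (-0.63, SE 0.21, adjusted p = 0.0859) did not pass after scaling to spike-ins. As deposited, 8 chains responded lower than in SH-EP, against 20.3% of all genes: ITGA2, ITGA4, ITGA5, ITGB5, LAMB1, LAMB2, LAMB3, and LAMC1. The interaction of ITGA1 was -0.03 (SE 0.19) and that of ITGB1 -0.08 (SE 0.25), neither past the test.

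**Figure D5:**
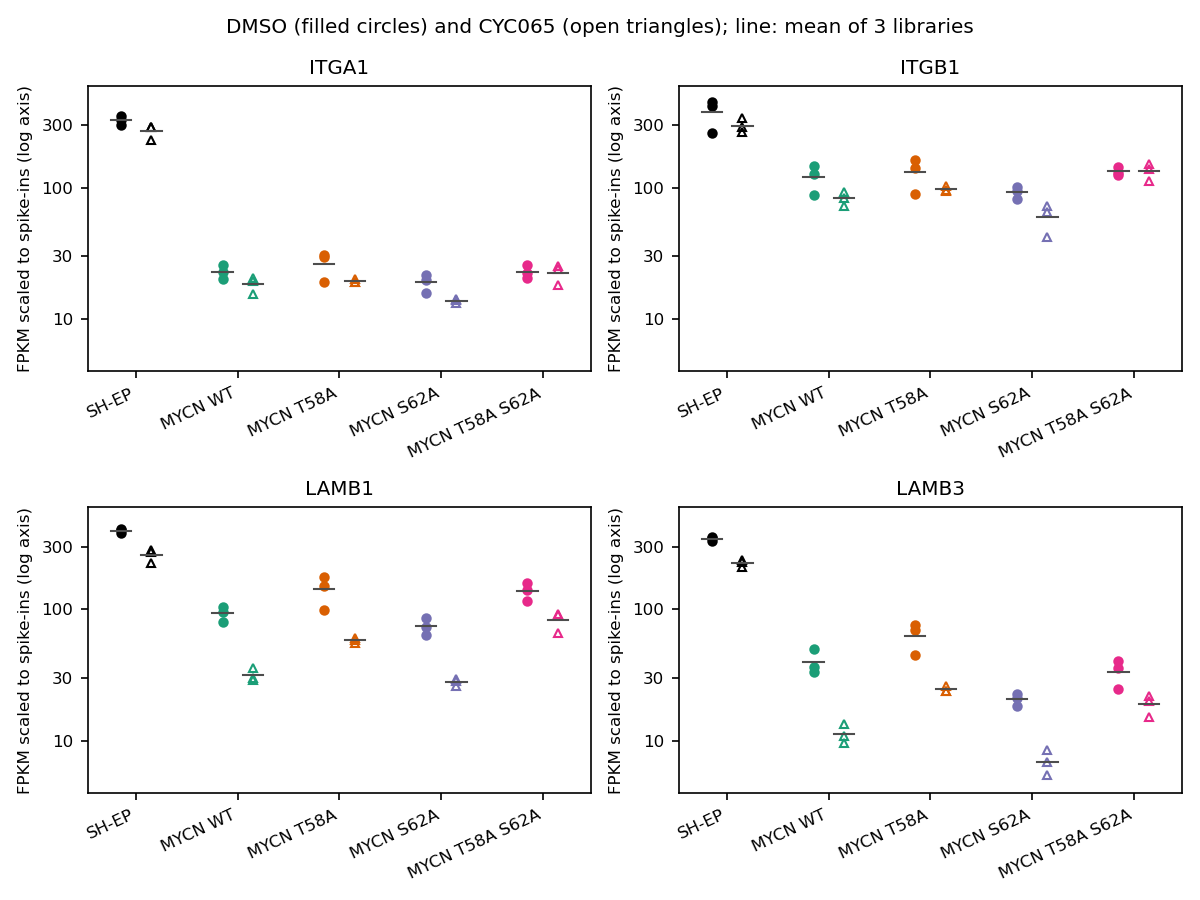
Spike-in scaled FPKM (log axis) of ITGA1, ITGB1, LAMB1, and LAMB3 in each library of the 5 lines, in DMSO (filled circles) and CYC065 (open triangles), with the mean of 3 libraries as a line. LAMB3 falls in every line without overlap. ITGA1 overlaps between treatments in T58A S62A, with a change of -0.04, and also with WT MYCN and T58A.

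Genes that act with these chains were examined as 3 lists by the mean over the MYCN lines in DMSO. Of 32 genes of the talin-kindlin adhesome, which links integrin tails to actin, 28 were tested, and 5 were higher, 17 lower, and 6 not called, with a median of -0.23 in log2 against 0.06 for all genes, of which 34.6% were higher and 26.3% lower. The largest differences were those of FHL2, a LIM protein of adhesions (11.4 ± 0.694 FPKM in SH-EP, 1.48 higher), FERMT1, the epithelial kindlin (3.93 ± 0.136 FPKM, 1.23 higher), and TGFB1I1, a paxillin relative (24.7 ± 2.29 FPKM, -1.16). Of 22 ligands and basement membrane genes, 18 were tested, and 2 were higher, 15 lower, and 1 not called, with a median of -0.95. FN1, fibronectin, had the largest fall, from 303 ± 1.70 FPKM in SH-EP (mean ± SD, n = 3) to an average of 38.1 FPKM in the MYCN lines (-3.03, SE 0.04, adjusted p = 7.45e-25). FBN1, fibrillin, fell from 22.9 ± 0.702 to an average of 4.75 FPKM (-2.27). ICAM1, the ligand of leukocyte integrins, was at 0.0693, 0.0794, and 0.0804 FPKM in SH-EP and was higher on average over the MYCN lines (2.66). It was at 7.79 to 9.38 FPKM with T58A, 0.943 to 1.47 FPKM with WT, and 0.752 to 0.983 FPKM with both mutations, but at 0.0268 to 0.106 FPKM in S62A, which overlapped SH-EP. Of 13 other laminin receptors, tetraspanins, and dystroglycan glycosylation genes, 11 were tested, and 0 were higher, 8 lower, and 3 not called, with a median of -0.33. CD82, a tetraspanin that associates with integrins, fell from 39.8 ± 1.19 to an average of 4.69 FPKM (-3.29, SE 0.13, adjusted p = 3.95e-16). BCAM, a receptor of LAMA5, changed by -0.76 and CD63 by -0.68, both past the test.

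Ligands thus had the median nearest to that of the chains, -1.07, and the intracellular adhesome the farthest. With CYC065 after scaling to spike-ins, the medians over the 5 lines were -1.10 for the adhesome, -0.55 for the ligands, and -0.53 for the other receptors, beside -0.61 for the integrin and laminin chains and -1.14 for all genes, with 27 of 28, 17 of 18, and 11 of 11 lower, where 94% of all genes were. Most markers of mesenchymal NB were also lower in the MYCN lines in DMSO. By the mean over these lines, 5 of 6 such markers were lower, where 26.3% of all genes were, and YAP1 was not called. FN1 is also among the ligands. In T58A alone, 1 of the 6 was higher. The summed FPKM of the 6 was 3184 to 3303 in SH-EP against 1564 to 2240 in the MYCN-line DMSO libraries. Of 3 adrenergic markers tested, 1 was higher and 2 lower by the same mean. With CYC065 after scaling to spike-ins, the mesenchymal markers had a median of -1.05, nearer to that of all genes than to that of the chains. The part of cell state in the differences of the chains was not tested. Summed over 6 leukocyte markers, of which CD3E was at or near 0, levels were 8.19 to 8.40 FPKM in SH-EP, 2.35 to 4.24 in WT and S62A, 17.3 to 18.0 in T58A, and 78.9 to 87.7 in T58A S62A, where LCP1 alone reached 84.9 FPKM.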

How the data were processed

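RNA of 5 lines in DMSO and CYC065 was sequenced as strand-specific poly(A) libraries with ERCC spike-ins added by cell number. The authors aligned reads with HISAT2 to hg19 and computed the deposited FPKM with Cufflinks; the annotation and read totals were not given in the sources used here. Columns were matched to groups only, and library numbers below follow column order and pair nothing. No columns of other samples were used, and no 2 libraries were identical. The test was limma 3.58.1 under R 4.3.3 (trend on, 1 fit over 30 libraries) on log2(FPKM + 0.1) for the 11575 genes averaging 1 FPKM or more, with Benjamini-Hochberg adjusted p under 0.05. Lines were compared as deposited and treatments after the medians of 55 spike-ins were made equal. Every member is accounted for, tested members are named with values, and 3 genes per partner list are named by size of change. The members, lists and tests were chosen with earlier results of these data known. Scripts were tested on simulated data. Alternatives were other pseudocounts, filters, scalings, spike-ins, a 1.5-fold limit, fits of fewer groups, and each library left out. Depth is unknown, so no counting interval is given. Figures used python 3.11.15 and matplotlib 3.10.9. A few genes, including 1 member, are not reported here.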

Additional observations from a re-analysis of the deposited data

Results flagged for a closer look

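The response of LAMB3, the laminin β3 chain, to CYC065 differed between the MYCN lines and SH-EP by the interaction test itself: -0.77 in log2 after scaling to spike-ins (limma, SE 0.23, adjusted p = 0.0372) and -0.73 as deposited (adjusted p = 1.29e-06). LAMB3 changed by -0.61 in SH-EP and by -0.81 to -1.81 in the 4 MYCN lines. Fits that left out 1 of 30 libraries gave -0.83 to -0.73, and 10 of them lost the call on the spike-in scale. With the 21 spike-ins of mean 50 FPKM or more it was -0.98 with adjusted p = 0.105, which did not pass.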

How the results depend on the processing

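Scaling mattered most. As deposited, chains lower with CYC065 numbered 2 in T58A and 0 in SH-EP and each of the other lines, and 8 responded differently from SH-EP; with each library centred on its median, 0 were lower in each of the 5 lines and 8 responded differently. The mean change with CYC065 as deposited was ITGA1 0.98, ITGA2 0.30, ITGA3 0.74, ITGA4 0.82, ITGA5 0.35, ITGA6 0.70, ITGA10 0.35, ITGAE 0.55, ITGAV 0.49, ITGB1 0.91, ITGB5 0.85, LAMA2 0.80, LAMA4 0.44, LAMA5 0.77, LAMB1 0.18, LAMB2 0.63, LAMB3 0.056, and LAMC1 0.73. With median centring it was ITGA1 1.15, ITGA2 0.47, ITGA3 0.90, ITGA4 0.99, ITGA5 0.51, ITGA6 0.87, ITGA10 0.51, ITGAE 0.71, ITGAV 0.66, ITGB1 1.08, ITGB5 1.02, LAMA2 0.96, LAMA4 0.61, LAMA5 0.93, LAMB1 0.34, LAMB2 0.79, LAMB3 0.22, and LAMC1 0.90. With spike-in scaling, 5, 12, and 1 chains differed from WT in T58A, S62A, and T58A S62A. The mean over the MYCN lines in DMSO was then -0.92 for ITGAE and -1.24 for LAMA4, the S62A difference from WT was -0.27 for ITGA1, -0.0034 for ITGA3, and -0.32 for LAMB1, and that of T58A S62A was 0.0010 for ITGA1 and 0.0325 for ITGA4. A 1.5-fold limit left 8 chains lower with CYC065 in T58A and 1, 2, and 2 that differed from WT in T58A, S62A, and T58A S62A. With 21 spike-ins of mean 50 FPKM or more, 3 chains were lower with CYC065 in SH-EP, 8 in T58A, and 12 in T58A S62A, and 0 responded differently. With only the groups compared, 10 were lower in SH-EP and 7 in T58A, and 6 and 4 differed from WT in T58A and T58A S62A. Chains with a different response numbered 2 with pseudocount 1 and 2 without a filter. Leaving out single libraries gave 8 to 18 chains lower with CYC065 in T58A, 0 to 4 with a different response, and a DMSO mean of -0.0016 (without S62A library 2) to 0.11 for LAMA4. The cause of these shifts was not tested. Over all settings, counts kept within 1.5 times of the reported value in 190 cases and did not in 44, and single-gene results kept direction and call in 1332 cases, lost the call in 59, and turned direction in 44. No paired analysis was possible because the table's columns do not carry the labels' replicate numbers. Depth, known only in relative terms and lower with CYC065, limits genes near 1 FPKM such as ITGA10.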
